A study of Mus musculus with 6 samples.

Results

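Wnt10a is a secreted ligand of the Wnt family, and its transcript was followed in leukaemia cells from the spleens of mice given a casein kinase 1 inhibitor or vehicle. It is 1 gene of the 54232 in the deposited count table, found by its symbol (ENSMUSG00000026167). It was chosen because, among the 5145 tested genes with lower values under the inhibitor, it had the smallest p in the comparison of treated with control libraries. Its levels in that comparison are therefore given as a description, with no test.

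The leukaemia came from Eµ-TCL1 mice, in which an immunoglobulin heavy-chain promoter and enhancer drive the TCL1 oncogene in B cells. Mononuclear cells of donor spleens, about 99% of them leukaemic, were taken at the terminal stage (at least 60% CD5+ CD45R(low) cells in blood) and injected into the peritoneum of WT C57BL/6J recipients. The CK1i group (3 libraries) received, by mouth, 50 mg/kg of the kinase inhibitor PF-670462, directed at casein kinase 1 delta and epsilon, in 10% kolliphor/PBS. The CTRL group (3 libraries) received 10% kolliphor/PBS alone. Dosing began 5 days after the transfer, ran in cycles of 5 days with and 2 days without treatment, and lasted 8 weeks in all. The experiment ended when the CTRL mice were terminal, and RNA was taken from leukaemic B cells sorted from the recipient spleens. Both groups thus carried the same kind of transplanted leukaemia in WT hosts. Whether the libraries of a group come from separate mice is not stated in the labels, and the p-values below then measure a spread between libraries that may be technical.

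Wnt proteins are lipid-modified in the endoplasmic reticulum by the acyltransferase Porcupine, carried to the cell surface by Wntless (Wls) and bound by Frizzled receptors with LRP5 or LRP6 as coreceptors. In the canonical branch the signal passes through Dishevelled, which casein kinase 1 delta and epsilon phosphorylate, and stabilises beta-catenin, which then acts with TCF and LEF factors on target genes. Wnt10a acts mainly through the canonical branch. In humans, inherited loss of WNT10A disturbs teeth, hair, nails and sweat glands, and CLL cells are known to express several Wnt ligands.

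Wnt10a lies on the forward strand of chr1:74791516-74804179 (GRCm38, GENCODE M21). Its full-length coding transcript, Wnt10a-201, has 2468 bases in 4 exons, with a coding sequence of 1254 bases that ends in exon 4. No annotated gene overlaps it on either strand. The libraries count the 3′ ends of transcripts, so 1 transcript gives tags near its end whatever its length and levels are not divided by length. The polyadenylation signal AATAAA, searched on the transcript strand, lay 19 bases before the annotated end of Wnt10a-201, and 46.5% of 55063 coding transcripts held it in their last 50 bases.

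The closest relative of Wnt10a in these cells is Wnt10b, and the stretch of read length at which their transcripts were most alike is shown because it bears on whether the counts of both genes can be told apart. Both stretches are coding sequence of the last exon, from the GENCODE M21 transcripts, written 5′ to 3′ on the transcript strand. Wnt10a's lies at chr1:74803490-74803564 on the forward strand and Wnt10b's at chr15:98772532-98772606 on the reverse strand. Capitals mark the bases that differ:
Wnt10a: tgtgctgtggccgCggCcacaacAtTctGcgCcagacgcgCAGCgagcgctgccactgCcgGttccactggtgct
Wnt10b: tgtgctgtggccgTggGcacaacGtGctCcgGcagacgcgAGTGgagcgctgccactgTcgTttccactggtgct
Of the 75 bases, 12 differed. Over the coding sequences 71.3% of 1142 aligned bases were identical. In the last 500 bases of Wnt10a-201 and Wnt10b-201, nearest to where their 3′ tags fall, the best stretch of 75 had 37 identical bases. Other annotated ends, such as those of Wnt10a-202 at chr1:74803495 and Wnt10b-206 at chr15:98770712, were not compared in this way. The longest run shared by Wnt10a and Wnt10b was 20 bases, and 0 of the 2439 runs of 30 bases in Wnt10a-201 occurred on either strand of a transcript of another gene.

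The 6 libraries held 2472064 to 3105137 counts, of which at least 99.4% fell in the 10067 tested genes. In CPM, the count scaled to the size of the library with TMM factors, 1 count was worth 0.326 to 0.401 CPM. Pairs of libraries differed by a chi-square of at least 4.02 per degree of freedom, where sampling noise alone gives about 1. That lowest value was for CK1i replicate 3 and CTRL replicate 2, and pairs within a group were at 6.17 to 10.3. Each library was counted as its own sample. The measure cannot tell separate mice from repeat preparations of 1 sample, and counts that repeat 1 molecule would also raise it. On the first principal component CTRL replicate 1 stood apart, at 31.4, from the other 5 libraries, at -12.4 to 4.68. Of the B-cell markers, Pax5 was at 601 to 790 CPM, Cd79b at 663 to 756 CPM, Cd5 at 25.9 to 34.3 CPM and Cd79a, the partner of Cd79b, at 8.88 to 17.6 CPM. At an adjusted p under 0.05, 0 of the tested genes were called by the quasi-likelihood test of edgeR, with 267 higher and 200 lower in CK1i at an unadjusted p under 0.05. DESeq2 called 5 and limma-voom 0.

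Wnt10a had 53, 65 and 51 counts in CK1i replicates 1, 2 and 3, and 145, 153 and 96 counts in CTRL replicates 1, 2 and 3. As levels these were 17.4, 21.2 and 20.5 CPM in CK1i libraries, and 51.5, 61.1 and 32.1 CPM in CTRL libraries. All CK1i libraries lay below all CTRL libraries, an order found in 4.48% of tested genes. The mean was 19.7 ± 1.99 CPM in CK1i libraries and 48.2 ± 14.8 CPM in CTRL libraries (SD, n = 3 each). The log2 fold change of CK1i over CTRL was -1.28 ± 0.23 (SE), the 15th largest fall in size among the 5145 lower genes. In bulk RNA, fewer cells that carry the transcript and less transcript per cell cannot be told apart.

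**Figure D1:**
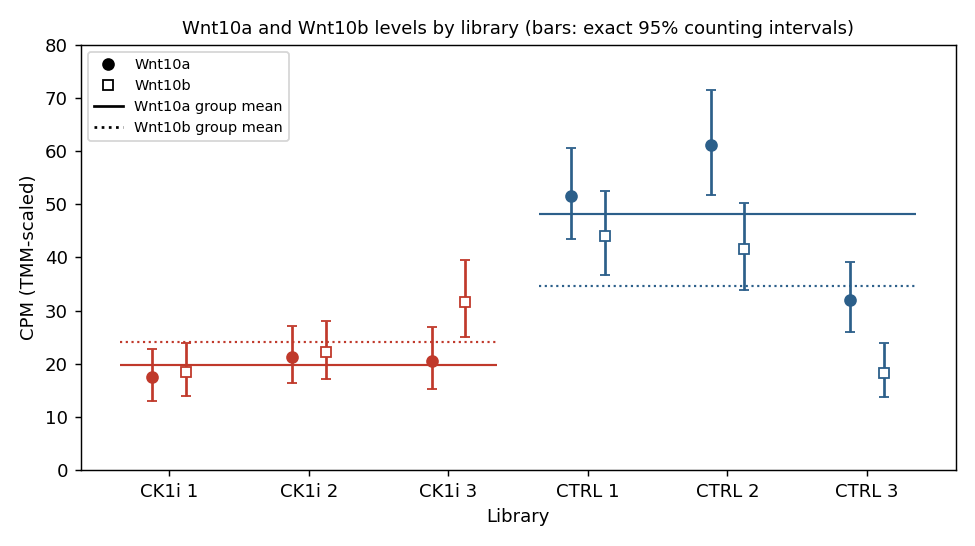
Levels of Wnt10a (filled circles) and Wnt10b (open squares) in CPM for each CK1i library (red, left) and CTRL library (blue, right), with exact 95% counting intervals as bars and the group means as solid (Wnt10a) and dotted (Wnt10b) lines. Wnt10a sits between 17.4 and 21.2 CPM in CK1i and between 32.1 and 61.1 CPM in CTRL, while the Wnt10b ranges overlap.

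Wnt10a levels were more alike among CK1i libraries than among CTRL libraries. The CK1i levels were within counting error of each other, with exact 95% intervals of 13.1 to 22.8, 16.4 to 27.02 and 15.2 to 26.9 CPM for replicates 1, 2 and 3. The CTRL intervals were 43.4 to 60.6, 51.8 to 71.6 and 26.0 to 39.1 CPM. CTRL replicates 1 and 2 therefore did not differ from each other beyond counting error. CTRL replicate 3 lay below both, and its interval reached just into those of CK1i replicates 2 and 3. The intervals cover counting error only, and take each count as a separate molecule. The coefficient of variation was 10.1% in CK1i and 30.7% in CTRL, where counting alone would give 13.3% and 8.73%. Among 2420 tested genes with a mean level within 1.5-fold of that of Wnt10a, the median coefficient was 12.5% in CK1i and 15.1% in CTRL, and 241 of them varied more than Wnt10a in CTRL.

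Ranked by count, Wnt10a stood within the top 44.3% to 47.3% of detected genes in CK1i libraries and within the top 23.9% to 36.6% in CTRL libraries. Leaving out CTRL replicate 3 set the log2 fold change at -1.51, leaving out CTRL replicate 2 at -1.09 and leaving out CTRL replicate 1, the library that stands apart, at -1.23. Without any 1 CK1i library it was between -1.35 and -1.20.

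Wnt10a and Wnt10b supplied nearly all Wnt ligand counts in these libraries. Here and below, a count of 0 means that no 3′ tag was assigned to the gene, not that its transcript was absent. The B-cell gene Cd79a, for 1, was at only 8.88 to 17.6 CPM beside its partner Cd79b at 663 to 756 CPM, and the cause was not tested. Of the 19 Wnt ligand genes, 16 were at 0 in every library, for which 3 counts over the libraries together set an upper limit of 0.177 CPM each. They include Wnt6, the neighbour of Wnt10a, and Wnt5a, the ligand of the ROR1 receptor in human CLL. Wnt16 had 3 counts, 2 of them in CK1i replicate 1 and 1 in CK1i replicate 3. Together Wnt10a and Wnt10b held 1049 of 1052 ligand counts, or 99.7%.

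Wnt10b, also a canonical ligand, had 18.4, 22.2 and 31.7 CPM in CK1i replicates 1, 2 and 3, and 44.0, 41.5 and 18.4 CPM in CTRL replicates 1, 2 and 3. Its highest levels were in CTRL replicates 1 and 2 and its lowest in CTRL replicate 3 and CK1i replicate 1, so the groups overlapped. The mean was 24.1 ± 6.83 CPM in CK1i libraries and 34.6 ± 14.1 CPM in CTRL libraries (SD, n = 3 each). The log2 fold change was -0.53 ± 0.32 (SE), not past the threshold (edgeR adjusted p = 1.00). CTRL replicate 3 was thus the lowest CTRL library for both ligands. Over the 6 libraries, the log2 levels of Wnt10a and Wnt10b had a Pearson r of 0.74, and their deviations from the group means one of 0.88. These are descriptions of values that share libraries and depth.

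The share of Wnt10a in all Wnt ligand counts was 47.7%, 48.9% and 38.9% in CK1i replicates 1, 2 and 3, and 53.9%, 59.5% and 63.6% in CTRL replicates 1, 2 and 3. Exact Clopper-Pearson 95% intervals ran from 30.5% to 57.7% over the CK1i libraries and from 47.7% to 71.2% over the CTRL libraries. Every CK1i share lay below every CTRL share, with means of 45.2 ± 5.44% in CK1i and 59.0 ± 4.86% in CTRL (SD, n = 3 each). Since the share rests on the same Wnt10a counts by which the gene was chosen, it was not tested. The summed level of both ligands was 35.9, 43.4 and 52.1 CPM in CK1i libraries and 95.5, 102.6 and 50.4 CPM in CTRL libraries, so the sum overlapped between the groups through CK1i replicate 3 and CTRL replicate 3.

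**Figure D2:**
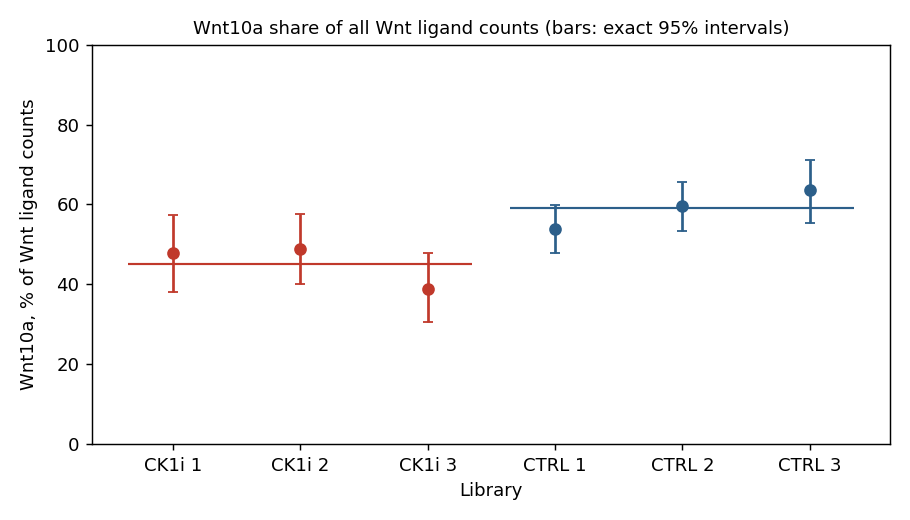
Share of Wnt10a in the counts of all Wnt ligands, in percent, for each CK1i library (red, left) and CTRL library (blue, right), with exact 95% intervals as bars and group means as lines. The CK1i shares run from 38.9% to 48.9% and the CTRL shares from 53.9% to 63.6%.

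The rest of the pathway was grouped by role, from ligand export to target genes. Of 141 genes listed beside Wnt10a, the other ligands included, 140 were found in the table, Aes being the exception. Of these, 58 had 0 counts in all libraries, 27 had counts below the filter and 55 were tested. EdgeR called 0 of the 55 (0% of all tested genes were called). At an unadjusted p under 0.05, 1 of the 55 was higher in CK1i, against 2.65% of all tested genes, and 2 were lower, against 1.99%. Every CK1i library was above every CTRL library in 1 of the 55 (5.22% of all tested genes) and below them in 3 (4.48%). The median log2 fold change of the 55 was -0.019, beside -0.0052 over all tested genes.

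In ligand maturation and secretion, Porcn, which encodes Porcupine, had 0 counts in all libraries. Wls, the Wnt carrier, had 6, 6 and 28 counts in CK1i replicates 1, 2 and 3, and 1 count in each CTRL library. Its CK1i counts exceeded its CTRL counts without overlap, as for 3.95% of the 18826 genes with a count, and CK1i replicate 3 held most of the counts. The summed counts gave a ratio of 12.9 for CK1i over CTRL, with an exact 95% counting interval of 4.11 to 65.2. Wls was below the filter and so was not tested there. In an edgeR fit without a filter, which called 0.303% of genes higher, the log2 fold change of Wls was 3.59 ± 0.72 (SE), at an edgeR adjusted p of 0.00073. Without CK1i replicate 3 that fit gave 2.31 ± 0.98 (edgeR adjusted p = 0.92), with summed counts of 12 in CK1i and 3 in CTRL.

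CK1i replicate 3 also had the highest summed level of T-cell markers, 11.2 CPM over the 9 markers found, against 1.96 to 4.94 CPM in the other CK1i libraries and 1.597 to 3.67 CPM in CTRL libraries. The part of T cells in the Wls counts was not tested. The general sorting genes of the same list were well expressed and gave no call among 8 tested. Vps35, a retromer subunit that recycles Wntless, averaged 174 ± 16.9 CPM in CK1i libraries and 169.7 ± 9.84 CPM in CTRL libraries (SD, n = 3 each). Snx3, a sorting nexin of the same route, averaged 182.6 ± 5.72 CPM in CK1i libraries and 152 ± 20.8 CPM in CTRL libraries and was the gene with all CK1i libraries above all CTRL libraries. Its log2 fold change was 0.26 ± 0.14 (SE), at an edgeR adjusted p of 1.00. The cargo receptors Tmed10 and Tmed2 had log2 fold changes of -0.016 ± 0.14 and -0.18 ± 0.16 (SE).

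Receptor genes for a Wnt ligand had few counts. Of the 10 Frizzled genes 7 had 0 counts, and Fzd5, with 54 counts, was the only Frizzled gene above 1 count. Fzd5 had 29 counts in CK1i libraries and 25 in CTRL libraries. Lrp5 and Ror1 had 0 counts. The coreceptor gene Lrp6 averaged 33.3 ± 5.94 CPM in CK1i libraries and 29.5 ± 5.18 CPM in CTRL libraries, and Ryk, a Wnt-binding receptor with an inactive kinase domain, at 48.1 ± 2.71 CPM in CK1i libraries and 49.1 ± 6.76 CPM in CTRL libraries (SD, n = 3 each). Neither was called, with log2 fold changes of 0.17 ± 0.20 for Lrp6 and -0.024 ± 0.16 for Ryk (SE).

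Genes that tune receptor levels or block ligands were few and none of the 4 tested was called. Rnf43, a ubiquitin ligase that removes Frizzled receptors from the surface, averaged 11.1 ± 1.70 CPM in CK1i libraries and 10.8 ± 0.97 CPM in CTRL libraries. Lgr5, an R-spondin receptor, averaged 6.73 ± 1.69 CPM in CK1i libraries and 4.69 ± 2.93 CPM in CTRL libraries, where CTRL replicate 3 was at 1.34 CPM. Sostdc1, a secreted antagonist of BMP and Wnt signals, was the most abundant of the inhibitors, at 49.9 ± 2.07 CPM in CK1i libraries and 53.97 ± 11.3 CPM in CTRL libraries (SD, n = 3 each). Dkkl1, a relative of the Dickkopf inhibitors, had a log2 fold change of -0.11 ± 0.28 (SE).

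The cytoplasmic machinery was nearly complete, with 19 of its 20 listed genes tested, 9 higher, 10 lower and 0 called. Its most abundant members were Csnk1a1, the kinase that primes beta-catenin for destruction, Ctnnb1, which encodes beta-catenin, and the tankyrase gene Tnks2, with log2 fold changes of 0.01 ± 0.14, -0.036 ± 0.14 and 0.035 ± 0.15 (SE). The genes of the inhibited kinases, Csnk1d and Csnk1e, had -0.17 ± 0.14 and -0.30 ± 0.19 (SE). The 2 pathway genes with lower values at an unadjusted p under 0.05 were the Dishevelled genes Dvl1 and Dvl2, named after their values were seen, with 74.0 ± 8.02 CPM in CK1i libraries and 95.9 ± 8.93 CPM in CTRL libraries for Dvl1, and 30.5 ± 5.11 CPM in CK1i libraries and 42.4 ± 2.31 CPM in CTRL libraries for Dvl2 (SD, n = 3 each). Their log2 fold changes were -0.38 ± 0.15 and -0.48 ± 0.18 (SE), with edgeR adjusted p-values of 0.99 and 0.95. In both, and in Csnk1d, all CK1i libraries lay below all CTRL libraries.

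In the nucleus, the coactivator genes Ep300 and Crebbp and the corepressor genes Tle3 and Tle4 were the most abundant, with log2 fold changes of -0.016 ± 0.15, 0.15 ± 0.16, 0.16 ± 0.14 and -0.29 ± 0.26 (SE). Of the TCF and LEF factors only Tcf7 passed the filter. Tcf7 had 21.7, 13.0 and 20.5 CPM in CK1i replicates 1, 2 and 3, and 12.1, 13.2 and 9.35 CPM in CTRL replicates 1, 2 and 3. The groups overlapped through CK1i replicate 2, and the log2 fold change was 0.67 ± 0.26 (SE), at an edgeR adjusted p of 0.99. Tcf7 is also a T-cell gene, and the summed T-cell markers were 4.94, 1.96 and 11.2 CPM in CK1i replicates 1, 2 and 3, and 2.13, 1.597 and 3.67 CPM in CTRL replicates 1, 2 and 3. Both were lowest in replicate 2 among CK1i libraries, whereas among CTRL libraries their orders were opposite. The part of T cells in its level was not tested. Lef1 had 8 counts in CK1i libraries and 7 in CTRL libraries. Ctnnbip1, which encodes an inhibitor of the binding of beta-catenin to TCF factors and is named after its values were seen, had 10, 9 and 6 counts in CK1i libraries and 1, 3 and 3 in CTRL libraries, without overlap (3.95% of genes with a count lay in that order) and below the filter. The ratio of its summed counts, CK1i over CTRL, was 3.45, with an exact 95% interval of 1.45 to 9.46 that covers counting error only.

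Target genes of the canonical branch gave no call among 6 tested, with 4 higher, 2 lower and a median log2 fold change of 0.16. Axin2, the most general target gene and itself a brake on the pathway, had 1, 0 and 14 counts in CK1i replicates 1, 2 and 3, and 1, 0 and 0 counts in CTRL replicates 1, 2 and 3. Apart from the 14 in CK1i replicate 3 it was at or near 0. The adhesion receptor gene Cd44 had a log2 fold change of -0.085 ± 0.14, Myc 0.28 ± 0.19 and Tnfrsf19, a TNF receptor family member, -0.16 ± 0.31 (SE).

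Planar polarity and noncanonical genes likewise gave 0 calls among 9 tested. The small GTPase genes Cdc42, Rac1 and Rhoa had log2 fold changes of -0.019 ± 0.14, 0.15 ± 0.14 and -0.18 ± 0.16, and the polarity gene Scrib 0.026 ± 0.15 (SE). Vangl2, a core polarity gene named after its values were seen, had 5, 5 and 18 counts in CK1i libraries and 1, 2 and 1 in CTRL libraries. Its counts were again highest in CK1i replicate 3, as for Wls and Axin2.

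**Figure D3:**
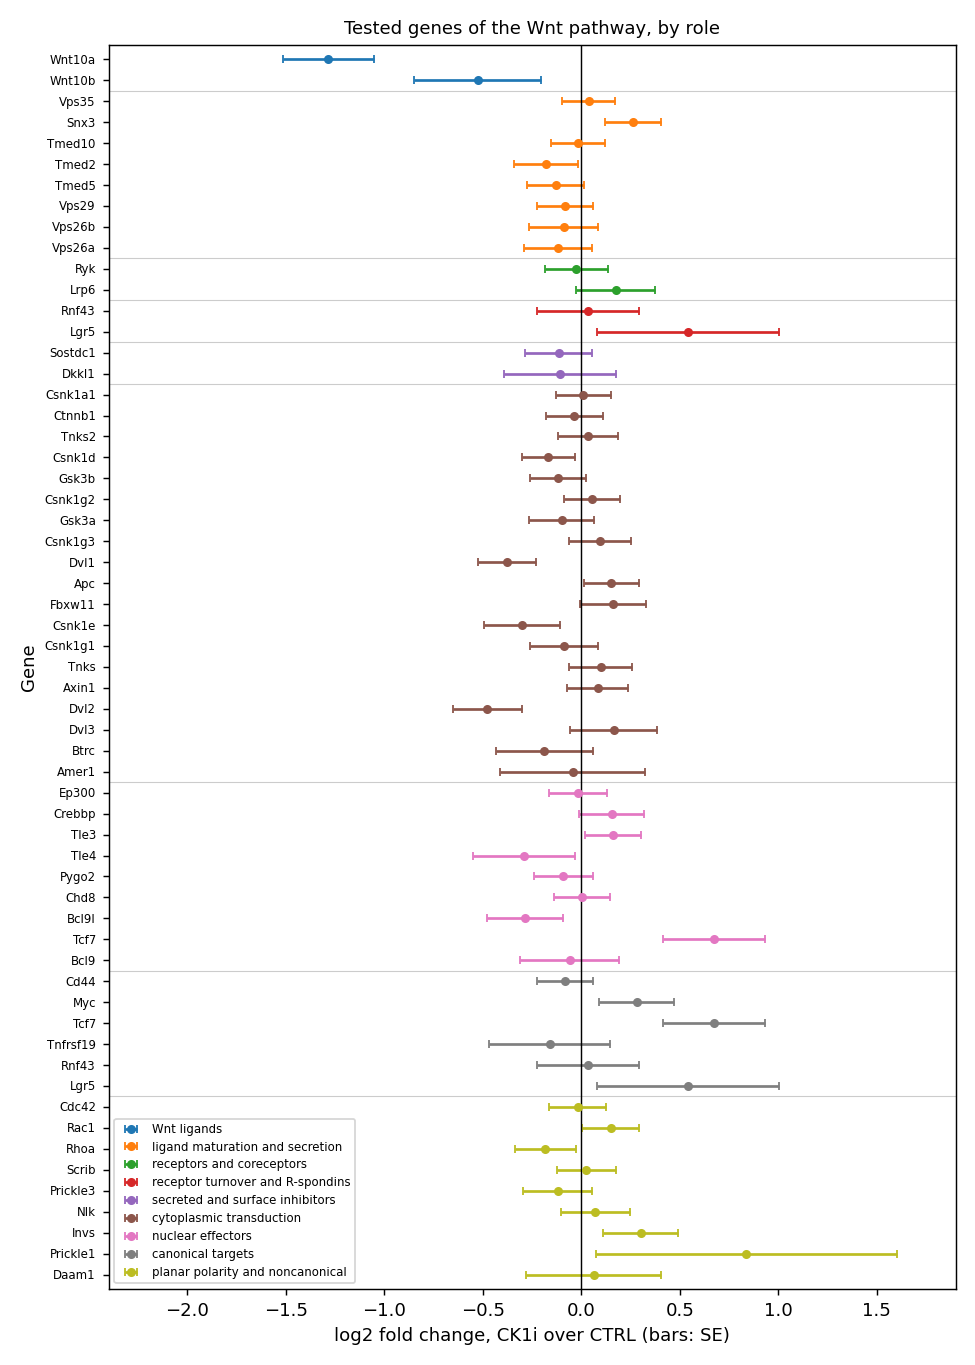
Log2 fold change of CK1i over CTRL for the tested genes of each Wnt pathway list, coloured by role and sorted by mean level within a role, with SE bars; Tcf7, Rnf43 and Lgr5 appear in 2 lists. Wnt10a, at -1.28, lies farthest from 0, and 0 of the genes shown, Wnt10a included, passed the threshold.

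Of 19 annotated genes within 200 kb on either side of Wnt10a, 11 had 0 counts in all libraries, beside 35406 of the 54232 genes in the table, and 3 were tested. Wnt6 ends 6193 bases before Wnt10a starts and had 0 counts. Gm29539, an antisense gene within Wnt6, had 1 count, and Rnf25, Stk36, Cryba2 and Ihh had 6, 2, 3 and 1. The nearest tested gene, Ttll4, a tubulin glutamylase gene 87785 bases away, averaged 17.0 ± 2.59 CPM in CK1i libraries and 17.1 ± 3.30 CPM in CTRL libraries (SD, n = 3 each), a log2 fold change of -0.012 ± 0.23 (SE). Bcs1l, which encodes a chaperone of respiratory complex III, and Nhej1, a DNA end-joining factor gene, had -0.21 ± 0.23 and -0.045 ± 0.33 (SE). None of the 3 was called (edgeR adjusted p = 1.00 each).

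Markers of other cell types were set beside the Wnt10a levels. The summed monocyte and macrophage markers (9 of 10 with a count, Cd14 at 0) were 35.2 to 41.5 CPM in CK1i libraries and 24.1 to 28.7 CPM in CTRL libraries. They so moved against Wnt10a without overlap, an order that 5.22% of single tested genes also had. Most of that sum was Cd68, at 31.0 to 34.9 CPM in CK1i and 20.9 to 25.1 CPM in CTRL libraries. The defining macrophage gene Adgre1 had 2.63, 2.28 and 1.604 CPM in CK1i replicates 1, 2 and 3, and 2.48, 0.40 and 0.67 CPM in CTRL replicates 1, 2 and 3. Lyz2, Marco, Vcam1, Csf1r, C1qc, C1qa and C1qb had 16, 11, 7, 6, 4, 2 and 1 counts over all libraries. The part of these cells in the Wnt10a difference was not tested. T-cell, NK-cell, neutrophil, erythroid and platelet markers summed to at most 11.2 CPM in any library, and their ranges overlapped between the groups. Plasma cell markers summed to 1029 to 2538 CPM, stromal markers to 163 to 191 CPM and dendritic markers to 45.9 to 105 CPM. These ranges overlapped as well. Most of the plasma cell sum was Jchain, at 282 to 1348 CPM, and Mzb1, at 449 to 791 CPM. The plasma cell surface markers Sdc1 and Tnfrsf17 were at 1.30 to 9.23 CPM and 1.63 to 11.2 CPM. Most of the stromal sum was Pecam1, at 159 to 185 CPM, and most of the dendritic sum was Ccr9, at 44.9 to 101 CPM. Ncr1 and Gzmb of the NK cells, Ly6g, Csf3r, Mpo and Elane of the neutrophils, Pf4, Gp1bb and Gp9 of the platelets and Kdr, Col3a1 and Cxcl12 of the stroma were at 0.

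To describe which genes followed Wnt10a over libraries, Pearson r of log2 CPM over the 6 libraries was taken for 8757 genes with a mean of at least 5 CPM. Of these 8757 genes, 27 had an r of 0.9 or more and 33 an r of -0.9 or less. Over 6 libraries unrelated genes can also reach such values, and how many would do so was not estimated. The highest r belonged to Smyd2, a lysine methyltransferase (0.98), Timm9, a chaperone of mitochondrial import (0.97), Trim40, a TRIM-family gene (0.96), Rpl23a, a ribosomal protein gene whose counts are uncertain because of near-identical copies (0.96), and Qsox1, a sulfhydryl oxidase (0.95). Each had its lowest CTRL value in replicate 3, as Wnt10a did. Their differences were smaller than that of Wnt10a: Trim40 had 30.6, 31.3 and 32.5 CPM in CK1i replicates 1, 2 and 3, and 49.7, 45.1 and 37.7 CPM in CTRL replicates 1, 2 and 3, and Smyd2 had 26.0 to 27.3 CPM in CK1i and 28.4 to 31.5 CPM in CTRL.

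The lowest r belonged to Ankrd13a, a ubiquitin-binding protein (-0.98), Rgs18, a regulator of G-protein signalling (-0.98), Phf19, a Polycomb-associated protein (-0.98), Tm6sf1, a transmembrane protein (-0.98), and Nucb2, a calcium-binding nucleobindin (-0.97). Nucb2 had 31.6, 23.8 and 28.5 CPM in CK1i libraries and 15.6, 15.2 and 22.0 CPM in CTRL libraries, so that CTRL replicate 3 came nearest to the CK1i range. For the 10 genes the r of deviations from the group means was 0.75 to 0.93 on the positive side and -0.94 to -0.88 on the negative side. Because the 10 were picked by r over the same libraries, these values are no separate support for the likeness. None of the 10 was called (edgeR adjusted p = 0.89 to 1.00). The set rests on few libraries: with any 1 library left out, 0 to 4 of the 10 stayed among the 10 leading genes.

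**Figure D4:**
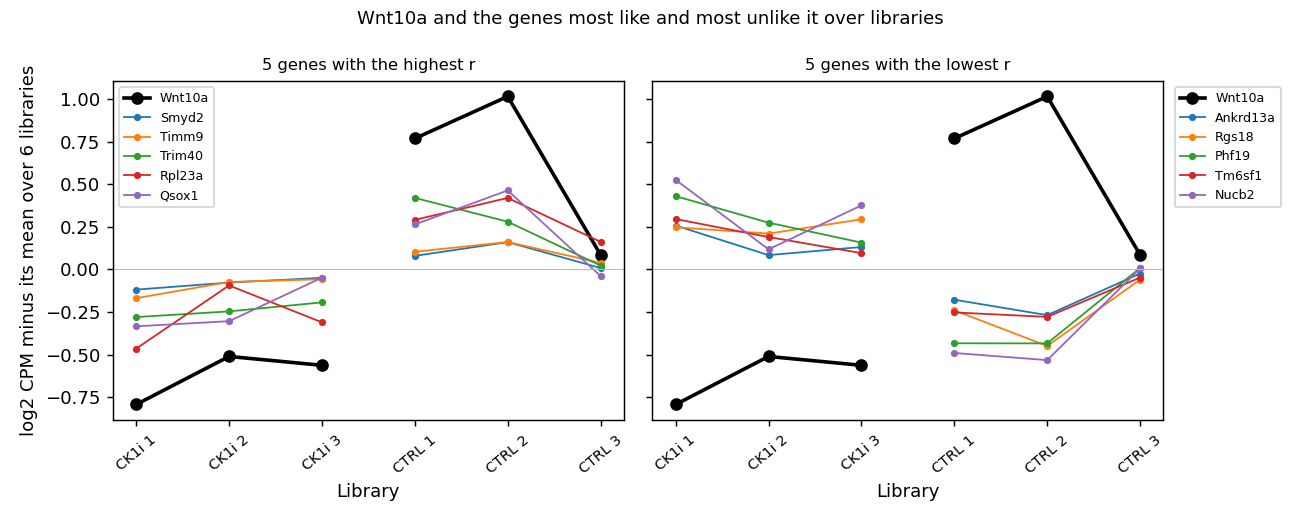
Log2 CPM of Wnt10a (black) and of the 5 genes with the highest (left) and lowest (right) Pearson r to it, each minus its mean over the 6 libraries, with CK1i libraries left of CTRL libraries and lines joining values of 1 gene within a group. Wnt10a spans a wider range than any of the 10, and in all of them CTRL replicate 3 lies closest to 0 among the CTRL libraries.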

How the data were processed

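The authors deposited whole-number counts per gene for 6 libraries. Per the labels' protocols they were made with a QuantSeq 3′ forward kit with UMIs and single reads of 75 bases. The submitters' processing notes name build GRCm38.p6 and, in no order, STAR 2.7.3a, featureCounts 1.6.3, UMI-tools 1.1.1, Trimmomatic 0.36, bcl2fastq 2.20.0.422, limma, Picard 2.18.27, Seurat and FastQC 0.11.9. UMI collapsing, strand setting and sort gate are not given in the sources used here. Intervals cover counting error only and take each count as a separate molecule. If UMIs were not collapsed, the intervals are too narrow even for counting error. Of 54232 identifiers, 54165 matched GENCODE M21. All libraries share 1 batch label.

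In R 4.3.3, edgeR 4.0.16 filtered genes (filterByExpr, minimum count 10, total 15), scaled by TMM and ran a robust quasi-likelihood F test, two-sided, with Benjamini-Hochberg adjustment over all 10067 tested genes. SE is the log2 fold change over the root of F. Log2 CPM has a prior count of 2. Alternatives used DESeq2 1.42.0, limma-voom 3.58.1, other scalings and filters, and left out each library. Code was tested on simulated data, with a biological coefficient of variation set below the 0.160 estimated for these libraries. That check does not measure the power to call genes here.

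Wnt10a, the lists and the tests were chosen with earlier results of these data known. Named are Wnt10a, ligands with a count, the 4 most abundant tested genes per list, 10 always-named genes (Porcn, Wls, Lrp5, Lrp6, Csnk1d, Csnk1e, Axin2, Lef1, Ror1, Tcf7), neighbours within 200 kb with a count, and the 5 genes of highest and 5 of lowest r, without Gm or Rik models, pseudogenes and immunoglobulin segments. Wnt5a, Wnt6, Fzd5, Dvl1, Dvl2, Ctnnbip1 and Vangl2 fall outside this rule and were named after their values were seen.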

Additional observations from a re-analysis of the deposited data

How the results depend on the processing

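The log2 fold change of Wnt10a stayed between -1.51 and -1.09 under all alternatives run, and the median of the other pathway genes between -0.028 and 0.0061, turning positive only without CTRL replicate 3. Genes called over the table numbered 0 with edgeR, 76 without a filter and 5 with DESeq2, and 0 to 1 with a library left out. Of the pathway genes beside Wnt10a, 1 (Wls) was called without a filter and 0 under the other alternatives. The fit of Wls without a filter and with a library left out was added after seeing the data: its log2 fold change was 2.31 to 3.99, and it lost its call only without CK1i replicate 3. Of the 10 genes most like or unlike Wnt10a, 3 stayed by Spearman correlation and 0 to 4 with a library left out; the cause was not tested. No paired analysis was possible because the library numbers in the labels are not shared between the groups. At this depth a level under 0.177 CPM over all libraries cannot be told from 0.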
